A study of Homo sapiens with 18 samples.

Results

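The genes described here are the laminin chains, the integrin chains and 5 extracellular proteins that join them: NID1, NID2, HSPG2, FN1 and VTN. They were chosen by symbol from the deposited count table, by a rule that uses no measured values. The choice was made with earlier results of these data known. Of 35025 genes, 42 are described. Of these, 36 passed the filter on low counts and were tested among 15531 genes. The other 6 (LAMB4, ITGAD, ITGAL, ITGAM, ITGAX and ITGB7) reached at most 10 counts in any library and were not tested.

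Bulk RNA-seq was made from foregut endoderm derived from wild-type H1 cells, a human embryonic stem cell line, in 6 groups of 3 libraries. All-trans retinoic acid (RA) was given at 2 µM for 24 h, from day 5 to day 6 of differentiation. CHIR99021, an inhibitor of the kinase GSK3 that raises WNT signalling, was given at 2 µM together with BMP4 at 50 ng/mL for 72 h, from day 6 to day 9. The 2 agents given together are written C+B. Cells were taken on day 6 either untreated or just after RA. On day 9 there were 4 groups: untreated, RA alone, C+B alone, and RA followed by C+B. The labels describe C+B as a means to mimic signals that induce respiratory fate. All groups came from 1 cell line. Whether the 3 libraries of a group came from different cultures is not stated, so each p-value reflects the spread between these libraries only.

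Laminins are trimers of an alpha, a beta and a gamma chain that assemble into the sheet on which epithelial cells rest, the basement membrane. Nidogens and perlecan tie that sheet to a second network made of collagen IV. Integrins are receptors of an alpha and a beta chain that span the cell membrane and hold cells to laminin, collagen, fibronectin or vitronectin. Which alpha chain meets which beta chain sets the ligand: ITGA3, ITGA6 and ITGA7 chains bind laminin, ITGA1, ITGA2, ITGA10 and ITGA11 bind collagen, and most partners of ITGAV recognise the RGD motif of fibronectin and vitronectin.

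Levels are CPM to 3 significant digits, unless TPM, which divides by gene length, is named. CPM is counts per 1000000 of the library size after edgeR's TMM scaling factor, while shares of all counts use unscaled totals. A gene was called where its adjusted p in edgeR's quasi-likelihood test was below 0.05. Library totals ran from 5.79 to 25.37 M counts (M is 1000000), and the median biological coefficient of variation between replicates was 8.52%. Epithelial markers were present in all groups (EPCAM at 272 to 423 CPM by group mean), as was the endoderm factor FOXA2 (18.9 to 235 CPM). A set of 64 genes, 58 of them pseudogenes and none a laminin, integrin or related gene described here, was selected because 16 libraries split at least 10-fold between treated and untreated in each. Of the reads in this set, 94 to 95.8% fell on its treated-side genes in the treated libraries and 0.351 to 0.608% in 4 untreated ones, with 8.92% and 17.6% in libraries 1 and 3 of untreated day 6, the mixed libraries. The split is called read kind here as a name only: the labels state no batch, and its cause was not tested. It coincides with treatment, so treated and untreated groups cannot be told apart from it. Comparisons within the treated groups are therefore given before those against untreated cells.

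The genes that changed most after C+B in cells given RA earlier included FN1, ITGA11 and ITGB6, and VTN rose most where RA came before C+B. Their promoters are shown because these 4 genes had some of the largest changes between treated groups. Each run is the 250 bases before the start site in RefSeq's GRCh38.p14 table, 5′ to 3′ on the gene's strand, with capitals marking letters of a motif found on either strand. In the same build the FN1 gene spans chr2:215360865-215436068, ITGA11 chr15:68296532-68432163, ITGB6 chr2:160099671-160200272 and VTN chr17:28367284-28370307.
FN1, chr2:215436069-215436318, minus strand: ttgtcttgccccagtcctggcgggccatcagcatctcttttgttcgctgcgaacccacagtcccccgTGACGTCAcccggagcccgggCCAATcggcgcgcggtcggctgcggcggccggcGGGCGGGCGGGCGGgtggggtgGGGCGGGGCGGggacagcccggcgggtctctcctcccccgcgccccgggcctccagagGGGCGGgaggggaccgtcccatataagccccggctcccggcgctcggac
ITGA11, chr15:68432164-68432413, minus strand: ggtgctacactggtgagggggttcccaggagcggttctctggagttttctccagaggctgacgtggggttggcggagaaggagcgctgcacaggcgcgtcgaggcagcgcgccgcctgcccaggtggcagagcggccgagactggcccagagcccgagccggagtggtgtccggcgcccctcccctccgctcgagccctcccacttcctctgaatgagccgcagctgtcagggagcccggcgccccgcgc
ITGB6, chr2:160200273-160200522, minus strand: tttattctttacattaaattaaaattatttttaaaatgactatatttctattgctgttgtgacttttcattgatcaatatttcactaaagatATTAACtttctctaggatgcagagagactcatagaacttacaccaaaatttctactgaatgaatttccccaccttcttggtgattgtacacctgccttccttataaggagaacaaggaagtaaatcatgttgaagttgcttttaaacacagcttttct
VTN, chr17:28370308-28370557, minus strand: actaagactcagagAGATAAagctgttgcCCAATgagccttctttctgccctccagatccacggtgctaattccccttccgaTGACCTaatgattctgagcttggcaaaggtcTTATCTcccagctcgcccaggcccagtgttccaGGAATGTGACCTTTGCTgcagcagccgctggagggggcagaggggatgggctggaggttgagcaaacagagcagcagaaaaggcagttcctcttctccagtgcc

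Of the 9 motifs searched, the SP box was written as GGGCGG and the CCAAT box as its own name. The cyclic AMP response element was TGACGTCA, and the AP-1 motif, which ends on the same letters, was TGANTCA. The GATA motif was spelled AGATAA, the core site of nuclear receptors AGGTCA, the TCF/LEF motif CTTTGNT, the TEAD motif GGAATG, and the HNF1-type motif GTTAAT. G and C made up 76.4% of the FN1 window, 71.2% of the ITGA11 window, 54.8% of the VTN window and 30.0% of the ITGB6 window, beside a median of 58.0% over 35116 windows of this length. The FN1 window held 6 positions of the SP box, some overlapping each other, with 1 CCAAT box and 1 cyclic AMP response element. ITGA11 held none of the 9 motifs, and ITGB6 held the HNF1-type motif alone. In VTN the second TGACCT, the reverse of the nuclear receptor core site, overlapped the TCF/LEF letters and stood next to the TEAD letters. Windows were found for 31 of the 42 genes. The SP box stood in 18 of them (58.1%) and in 42.6% of all windows, the nuclear receptor core site in 9.68% and 12.1%, and the TCF/LEF motif in 6.45% and 13.2%.

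Together the 42 genes took 3.39 to 4.30% of all counts in the 3 libraries of day 9 with RA alone and 0.924 to 0.934% in the 3 of RA followed by C+B. FN1 by itself took 2.40 to 3.19% and 0.379 to 0.406% of counts in those groups. The other 4 groups lay between, at 1.2 to 2.31% for the 42 genes. In bulk libraries, fewer cells of a type and less RNA per cell cannot be told apart, which holds for every level below.

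**Figure D1:**
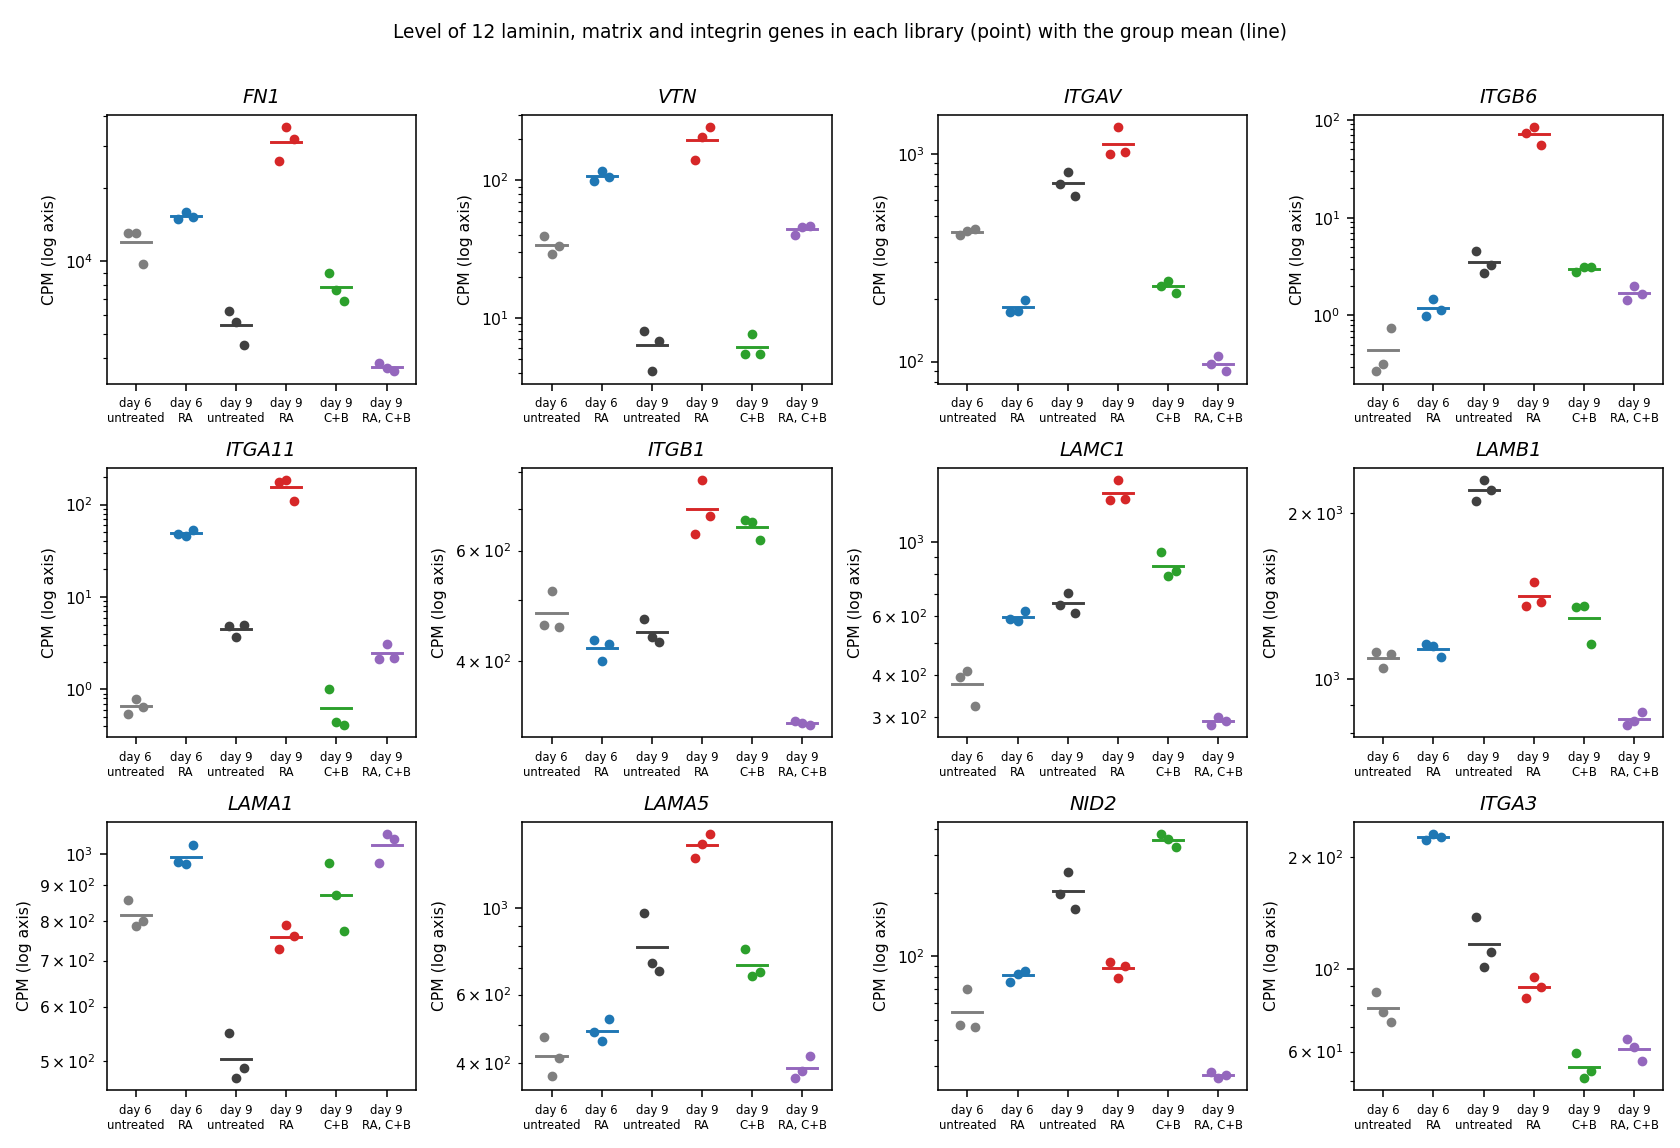
CPM on a log axis for 12 of the genes in each of 18 libraries (points) with group means (lines), by group; C+B is CHIR99021 with BMP4. FN1, VTN, ITGAV, ITGB6, ITGA11, LAMC1 and LAMA5 were highest at day 9 with RA alone, where ITGB6 read 55.1 to 84.8 CPM against at most 4.58 CPM in every other library.

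The first comparison asked what C+B did to cells that had been given RA, by setting day 9 with RA followed by C+B against day 9 with RA alone. Most of the genes fell: 23 of 36 were lower and 8 higher (86.1%), where 64.4% of all tested genes were called, 32.3% lower and 32.1% higher. Libraries of the 2 groups did not overlap in 32 of the 36 and in 69.3% of all genes. The median change over the 36 was -0.79 on the log2 scale, beside 0.02 over all genes. The falls covered fibronectin, vitronectin, all 3 linkers, 3 of 4 collagen-binding and 7 of 8 RGD-binding integrin chains. The rises were LAMA1, LAMA2, LAMA4, LAMB3, ITGA6, ITGB4, ITGA2B and ITGA9.

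FN1, the main soluble and fibrillar ligand of RGD-binding integrins, stood at 25900, 35900 and 31900 CPM with RA alone. With RA followed by C+B it stood at 3820, 3640 and 3520 CPM. The lowest library without C+B was thus far above the highest with it, and FN1 was 8.53-fold lower (log2 -3.09 ± 0.14 SE, adjusted p = 1.5e-13). VTN, which shares the RGD motif, fell from 140, 208 and 245 CPM to 40.4, 46.2 and 46.4 CPM. Its libraries did not overlap either, and the change was 4.5-fold (log2 -2.17 ± 0.18 SE, adjusted p = 4.5e-08).

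Among RGD-binding chains, ITGAV, the shared alpha chain of this class, fell from 999, 1350 and 1020 CPM to 96.8, 106 and 89.7 CPM. That is an 11.5-fold change (log2 -3.52 ± 0.12 SE, adjusted p = 3.5e-16) with no overlap. ITGB6, a beta chain that pairs with ITGAV only and is known from epithelia, fell from 73.3, 84.8 and 55.1 CPM to 1.43, 2.01 and 1.65 CPM (43-fold, log2 -5.42 ± 0.20 SE, adjusted p = 3.2e-16). The beta chains that also pair with ITGAV moved less: ITGB8 was 1.96-fold and ITGB5 1.34-fold lower. ITGB3 was 16-fold lower but started from 2.89 to 5.78 CPM, and ITGA8 was 20-fold lower from 3.69 to 5.43 CPM. ITGA5, the alpha chain of the classical fibronectin receptor, was 4.81-fold lower, from 208, 255 and 262 CPM to 51.5, 48.6 and 50.7 CPM (adjusted p = 3.3e-15). Its partner ITGB1, the beta chain shared by most integrins of these classes, was 2.19-fold lower (637, 777 and 681 CPM against 320, 318 and 316 CPM, adjusted p = 6e-12). ITGA2B, the platelet chain, was the exception of this class, 1.98-fold higher at 5.72 to 7.44 CPM against 2.89 to 3.78 CPM.

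Of the collagen-binding chains, ITGA11, a receptor for fibrillar collagen best known from mesenchymal cells, fell from 175, 183 and 109 CPM to 2.15, 3.11 and 2.21 CPM. The change was 63.5-fold (log2 -5.99 ± 0.21 SE, adjusted p = 3.4e-14), and no library of either group came near the other group. ITGA2 was 8.12-fold lower (182, 151 and 85.1 CPM against 17.3, 17.6 and 16.1 CPM, adjusted p = 9.2e-09). ITGA1 was 7.11-fold lower (104 ± 25.9 CPM, SD, n = 3, against 14.7 ± 1.36 CPM, edgeR's adjusted p = 6.8e-07). ITGA10 lay at 0.963 to 1.78 CPM with RA alone and at 0.603 to 0.909 CPM with RA followed by C+B and was not called (log2 -0.85, 95% interval -1.75 to 0.06). The laminin-binding chains moved little: ITGA6 was 1.33-fold and ITGB4, its hemidesmosome partner, 1.28-fold higher, and ITGA3 was 1.46-fold lower. ITGA7 was not called (log2 -0.08, 95% interval -0.33 to 0.16). ITGA9, whose dimer binds tenascin, was 1.75-fold higher (45.2, 48.1 and 50.3 CPM against 38, 26.2 and 19 CPM, adjusted p = 0.0069).

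Laminin chains split. LAMC1, the gamma chain of most laminins, fell from 1340, 1530 and 1350 CPM to 284, 300 and 291 CPM (4.82-fold, log2 -2.27 ± 0.09 SE, adjusted p = 8.5e-16). LAMA5, the alpha chain of mature epithelial basement membranes, fell from 1340, 1460 and 1550 CPM to 366, 381 and 417 CPM (3.74-fold, adjusted p = 7.1e-12). Both chains had no overlap between groups, and LAMB2 (1.98-fold) and LAMB1 (1.67-fold) also fell. LAMA1, the alpha chain of early embryonic basement membranes, rose 1.36-fold, from 727, 788 and 760 CPM to 971, 1070 and 1050 CPM (adjusted p = 3.7e-05). LAMA4, a chain of vessels and mesenchyme, rose 2.02-fold, from 4.65, 5.64 and 4.33 CPM to 9.76, 10.2 and 9.79 CPM.

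LAMA3 and LAMB3, laminin chains known from stratified epithelia, moved in opposite directions. LAMB3 rose 9.46-fold from a total of 4 counts over 3 libraries (0.104 to 0.222 CPM against 1.1 to 2.01 CPM). LAMA3 was 1.29-fold lower, a call lost without any of 5 of the 6 libraries (library 1, 2 or 3 of RA alone, 1 or 3 of RA followed by C+B), at adjusted p = 0.051 to 0.14, and also with upper quartile factors (adjusted p = 0.11), on TPM (0.056 and 0.093 with pseudocounts of 1 and 0.1) and with read kind as a term (0.054). Among the linkers, HSPG2, the gene of perlecan, fell 2.74-fold (2040, 2610 and 3270 CPM against 908, 1010 and 972 CPM, adjusted p = 1.9e-08). NID2 fell 3.19-fold (93.8, 79.2 and 90.1 CPM against 28.4, 26.4 and 27.3 CPM). NID1 was 1.21-fold lower, a call lost without library 2 or 3 of RA alone or library 1 of RA followed by C+B, at adjusted p = 0.062 to 0.076, and with upper quartile factors (adjusted p = 0.099).

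Markers of other cell types moved in the same comparison. The summed level of 12 cardiac muscle genes was 1830 to 2470 CPM with RA alone and 29.6 to 32.7 CPM with RA followed by C+B, and 12 of 12 were called lower. The 8 smooth muscle genes summed to 3340 to 4410 CPM and to 113 to 130 CPM, with 8 of 8 lower. The 15 mesenchyme genes summed to 2390 to 3630 CPM and to 356 to 401 CPM, with 6 of 12 tested lower and 3 higher. The cardiac myosin MYH6 stood at 723 ± 171 CPM (SD, n = 3) with RA alone and at 0.547 ± 0.702 CPM after C+B. MYBPC3, TWIST2 and TBX4 were at 0 counts in RA followed by C+B, and no gene of these 3 lists was at 0 with RA alone. Each was also at 0 counts elsewhere: MYBPC3 in untreated day 9 and with C+B alone, TBX4 in untreated day 6 and day 9, and TWIST2 at day 6 with RA. Epithelial genes also moved, from 10800 to 11000 CPM summed over 10 genes to 4840 to 5200 CPM, with 7 lower and 2 higher. KRT8 (4950 ± 162 CPM to 2230 ± 145 CPM, SD, n = 3) and KRT18 (2760 ± 88.6 CPM to 774 ± 42.1 CPM) made up most of that difference. EPCAM went from 413 ± 17.9 CPM to 362 ± 9.23 CPM, CDH1 from 602 ± 77.1 CPM to 534 ± 24.5 CPM, and GRHL2 from 77.1 ± 19.9 CPM to 114 ± 4.89 CPM. Foregut endoderm genes went from 1140 to 1260 CPM to 959 to 993 CPM, with 6 of 10 lower and 4 higher. The 12 endothelium genes summed to 99.4 to 131 CPM with RA alone and to 72.8 to 93.2 CPM after C+B, with 3 lower and 0 higher. The part of these cell types in the change of the laminin and integrin genes was not tested.

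**Figure D2:**
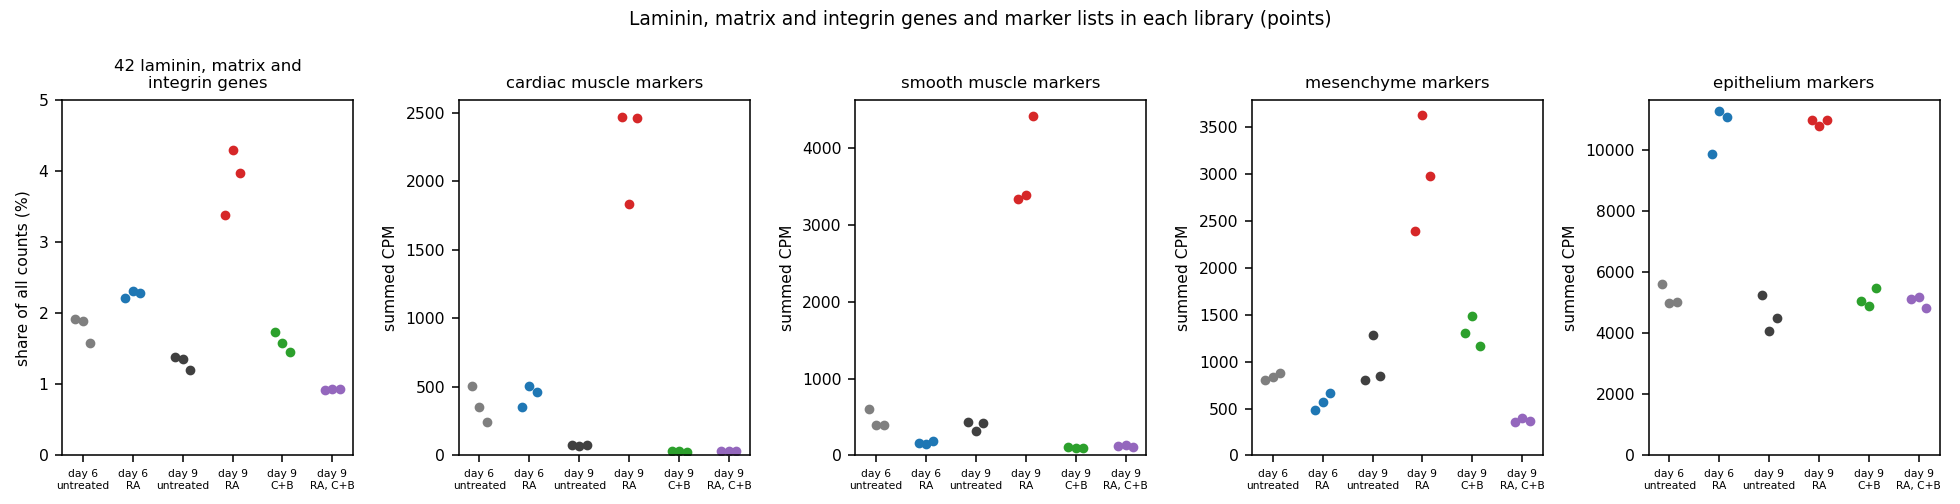
Share of all counts (%) held by the 42 genes and summed CPM of 4 marker lists in each library (points), by group. The 3 libraries of day 9 with RA alone were highest for the 42 genes (3.39 to 4.30%), cardiac, smooth muscle and mesenchyme markers, while epithelium markers were at 9890 to 11300 CPM in both RA-alone groups. KRT8 and KRT18 made up most of the epithelium sum in those 2 groups.

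The second comparison asked what earlier RA changed in cells given C+B, by setting day 9 with RA followed by C+B against day 9 with C+B alone. It shares the RA followed by C+B libraries with the first. Of the 36 genes, 18 were lower and 6 higher (66.7%), where 43.3% of all genes were called, 22.1% lower and 21.2% higher. Libraries did not overlap in 27 of the 36 and in 56.2% of all genes. On TPM with a pseudocount of 0.1 the split was 16 lower and 8 higher, and the share of higher calls over all genes moved from 48.9% to 62.2%. The largest fall was in NID2, a nidogen, and the largest rise was in VTN.

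NID2 stood at 380, 361 and 329 CPM with C+B alone and at 28.4, 26.4 and 27.3 CPM with earlier RA. The groups were far apart, with a 13-fold fall (log2 -3.70 ± 0.16 SE, adjusted p = 5e-12). LAMC1 was 2.91-fold lower, from 933, 793 and 821 CPM to 284, 300 and 291 CPM (adjusted p = 2e-12). ITGA5 was 2.6-fold, ITGA2 2.56-fold, ITGAV 2.35-fold and ITGB1 2.06-fold lower, each without overlap between libraries. FN1, at 9000, 7590 and 6870 CPM with C+B alone, was 2.14-fold lower with earlier RA (log2 -1.10 ± 0.14 SE, adjusted p = 1.3e-06). ITGA9 fell from 102, 120 and 103 CPM to 45.2, 48.1 and 50.3 CPM, a 2.27-fold change.

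VTN went the other way, from 5.43, 7.65 and 5.49 CPM to 40.4, 46.2 and 46.4 CPM (7.32-fold, log2 2.87 ± 0.23 SE, adjusted p = 8.1e-08). ITGB8, a beta chain whose dimer with ITGAV holds latent TGF-beta, rose 2.47-fold (24.6, 39.1 and 18.9 CPM against 64, 69.5 and 64.6 CPM, adjusted p = 0.0011). LAMA3 rose 1.58-fold (8.76 to 11.9 CPM against 14.2 to 19 CPM), and ITGA11 rose 3.88-fold but stayed at or below 3.11 CPM. LAMA1 was 1.18-fold higher, a call lost without library 3 of C+B alone (adjusted p = 0.13) or library 2 of RA followed by C+B (adjusted p = 0.073). Without library 1 of RA followed by C+B, LAMB3 went from log2 1.46 to 1.12 (adjusted p = 0.056) and ITGB6 from -0.87 to -0.69 (adjusted p = 0.096). Without library 2 of that group ITGA1 went from -0.96 to -0.89 (adjusted p = 0.052). ITGA2B, at log2 -0.45, kept its call without library 3 of RA followed by C+B only, and its adjusted p was 0.056 to 0.16 without each of the other 5, 0.062 with no low-count filter, 0.082 with DESeq2 and 0.17 to 0.21 on TPM. ITGB6 also missed the threshold on TPM, at 0.055 and 0.056.

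Between these 2 groups the cardiac list differed little in sum (24 to 32.1 CPM with C+B alone, 29.6 to 32.7 CPM with earlier RA). Of its 12 genes 1 was higher and 2 lower. The mesenchyme list summed to 1170 to 1490 CPM and to 356 to 401 CPM, but its genes were divided, with 6 of 12 tested lower and 3 higher. COL1A2 made up most of the difference in sum, at 861 ± 120 CPM (SD, n = 3) and 65.9 ± 8.14 CPM, while PDGFRA read 5.5 ± 0.866 CPM and 54.5 ± 3.29 CPM. The 10 foregut endoderm genes summed to 226 to 272 CPM with C+B alone and to 959 to 993 CPM with earlier RA, with 8 higher and 1 lower. The part of these lists in the changes was not tested.

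**Figure D3:**
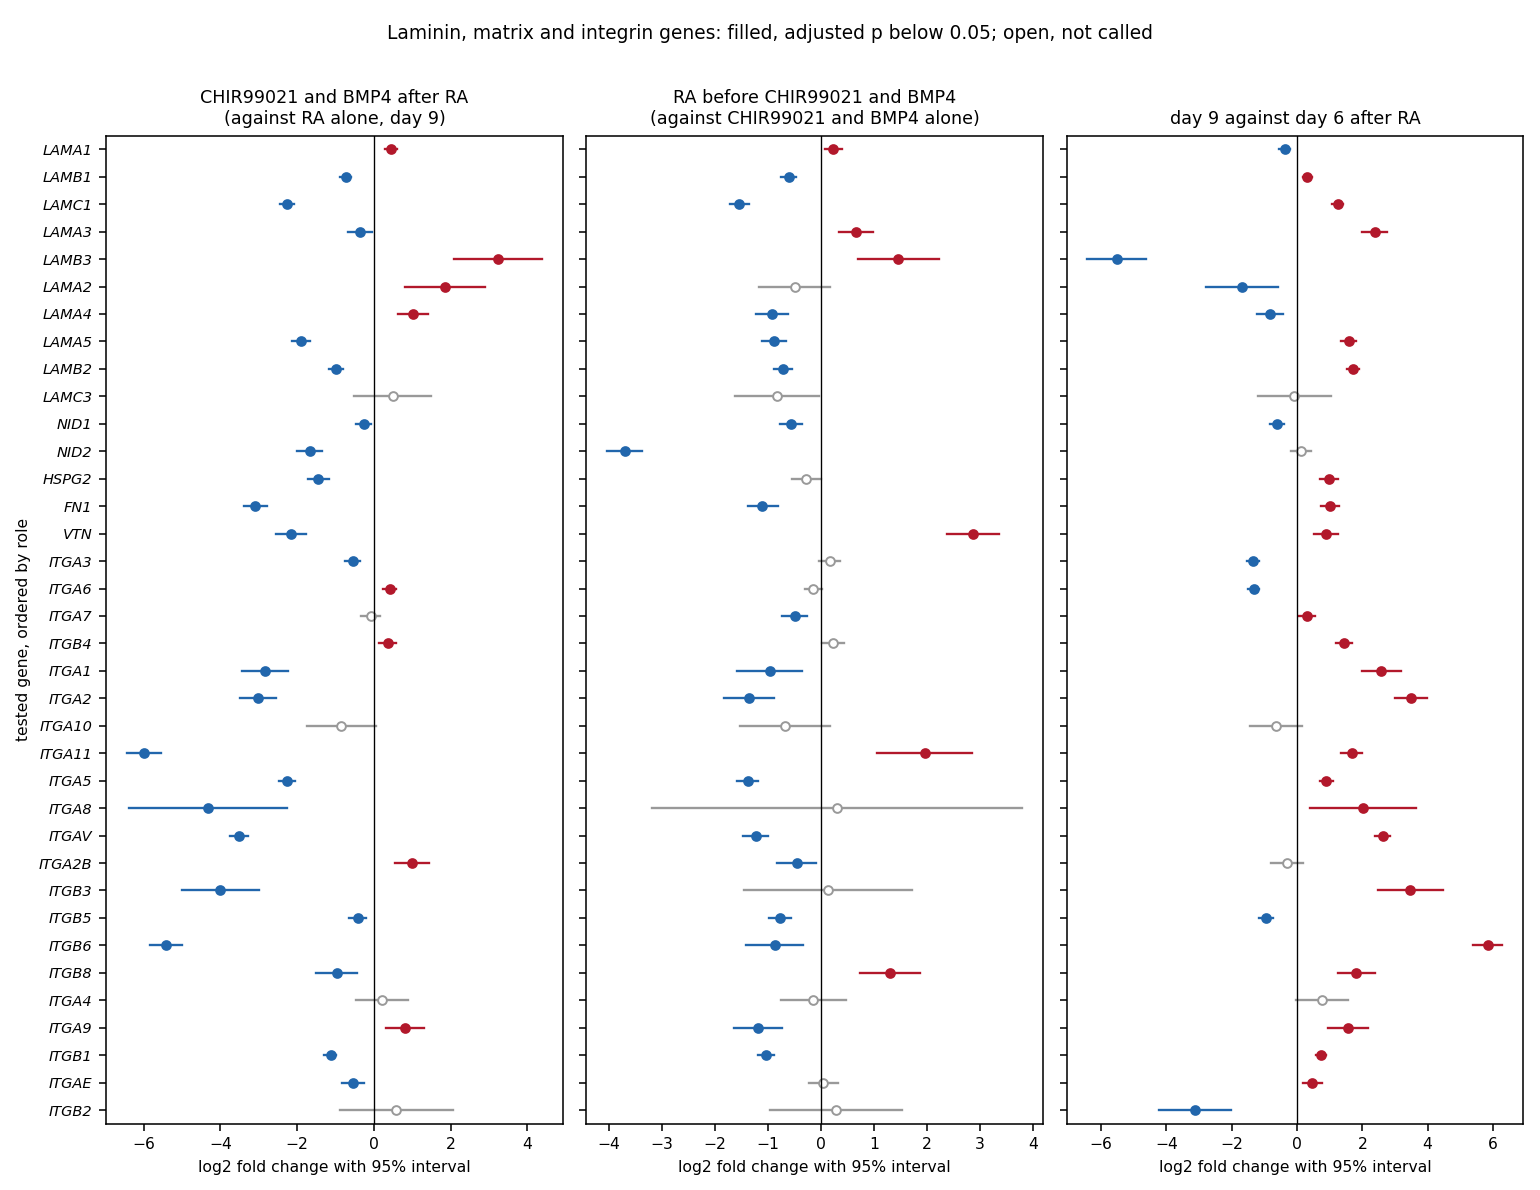
Log2 fold change (points) with 95% intervals (lines) of the 36 tested genes in 3 comparisons between treated groups, filled where called and open where not. In the left panel ITGA11 (-5.99) and ITGB6 (-5.42) lie farthest below 0, in the middle panel NID2 (-3.70), and in the right panel ITGB6 lies farthest above 0 (5.84) and LAMB3 farthest below (-5.51).

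The third comparison followed cells given RA from day 6 to day 9 with no further agent, and it shares the RA-alone day 9 libraries with the first. Of the 36 genes, 22 rose and 9 fell (86.1%), where 58.8% of all genes were called, 28.5% higher and 30.3% lower. Day 9 and day 6 libraries did not overlap in 31 of the 36 and in 65% of all genes. The median change was 0.82 on the log2 scale, beside -0.03 over all genes. Of the collagen-binding chains 3 of 4 were called higher, and of the RGD-binding chains 6 of 8. The 4 laminin-binding chains were divided, with ITGB4 and ITGA7 higher and ITGA3 and ITGA6 lower.

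ITGB6 rose from 0.993, 1.47 and 1.13 CPM at day 6 to 73.3, 84.8 and 55.1 CPM at day 9 (57.3-fold, log2 5.84 ± 0.22 SE, adjusted p = 3.9e-16). ITGA2 rose from 10.5, 13.2 and 13.4 CPM to 182, 151 and 85.1 CPM (11.2-fold, adjusted p = 4.3e-09). ITGAV rose from 174, 176 and 197 CPM to 999, 1350 and 1020 CPM (6.17-fold, adjusted p = 2.3e-14). All 3 genes had day 9 libraries well clear of day 6. ITGA1 rose 5.99-fold and ITGA11 3.18-fold, the latter from 48.1, 45.3 and 53.8 CPM. LAMA3 rose 5.2-fold (3.53 to 4.81 CPM against 20.2 to 22.9 CPM), LAMB2 3.29-fold, LAMA5 2.99-fold, LAMC1 2.36-fold, FN1 2.03-fold and HSPG2 1.96-fold. ITGA8 rose 4.04-fold at 0.49 to 5.43 CPM, a call lost without library 1 or 2 of day 6 or library 2 or 3 of day 9 (adjusted p = 0.056 to 0.13), and with no low-count filter (0.066).

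LAMB3 fell 45.6-fold, from 9.71, 7.68 and 6.09 CPM to 0.16, 0.104 and 0.222 CPM (log2 -5.51 ± 0.44 SE, adjusted p = 1.8e-10). LAMA3 and LAMB3 thus changed in opposite directions here too. ITGA3 fell 2.53-fold, from 223, 231 and 227 CPM to 83.7, 95.1 and 89.4 CPM (adjusted p = 2.5e-11). ITGA6 fell 2.51-fold (185, 179 and 149 CPM against 63.7, 71.9 and 69.1 CPM, adjusted p = 1.9e-12). ITGB4, which pairs with ITGA6, rose 2.7-fold (8.28, 11.2 and 9.49 CPM against 23.7, 26.6 and 28.4 CPM), and ITGA7 was 1.23-fold higher (adjusted p = 0.036). ITGB5 fell 1.94-fold, NID1 1.53-fold and LAMA1 1.3-fold. LAMA2, the chain of muscle basement membranes, lay at 0.104 to 0.849 CPM and was 3.23-fold lower, a call lost without library 2 of day 9 (log2 -1.27, adjusted p = 0.078). The cardiac and smooth muscle lists rose here as well, from 350 to 503 CPM and 150 to 186 CPM at day 6, with 11 of 12 and 8 of 8 genes called higher. TTN made up most of the cardiac sum at day 6 with RA (377 ± 80.2 CPM, SD, n = 3), where MYH6 read 0.738 ± 0.607 CPM. The median log2 change of the cardiac genes was 4.96. The mesenchyme list went from 480 to 667 CPM at day 6 to 2390 to 3630 CPM at day 9, with 8 of 12 tested higher and 3 lower. The foregut endoderm list went from 1290 to 1390 CPM to 1140 to 1260 CPM, with 1 of 10 higher and 7 lower. The part of these lists was not tested.

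Per transcript length, 2 alpha chains made up nearly all laminin alpha mRNA, and their order differed between groups. Of summed alpha chain TPM, LAMA1 held 58.4 ± 1.55% (SD, n = 3) in untreated day 6, 60.7 ± 0.943% at day 6 with RA and 65.9 ± 1.10% with RA followed by C+B. In those groups LAMA5 held 38.3 ± 1.72%, 38.2 ± 0.825% and 31.9 ± 1.31%. At day 9 without C+B the order was the other way: LAMA5 held 64.8 ± 2.61% in untreated cells and 70.2 ± 1.29% with RA alone, and LAMA1 32.3 ± 2.35% and 28.6 ± 1.17%. With C+B alone the 2 chains were close, at 50.3 ± 1.62% and 47.7 ± 1.76%, and their libraries overlapped. The total of the 5 alpha chains was 549 ± 40.5 TPM with RA alone at day 9 and 257 to 354 TPM by group mean elsewhere.

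LAMB1 held 68.3 to 85.6% of beta chain TPM by group mean and led the beta chains in every group. LAMB3 reached 3.26 ± 0.668% of beta chain TPM at day 6 with RA and 0.749 ± 0.233% or less in the other groups. LAMB1 had its highest CPM in untreated day 9 (2100, 2290 and 2200), above every other library.

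**Figure D4:**
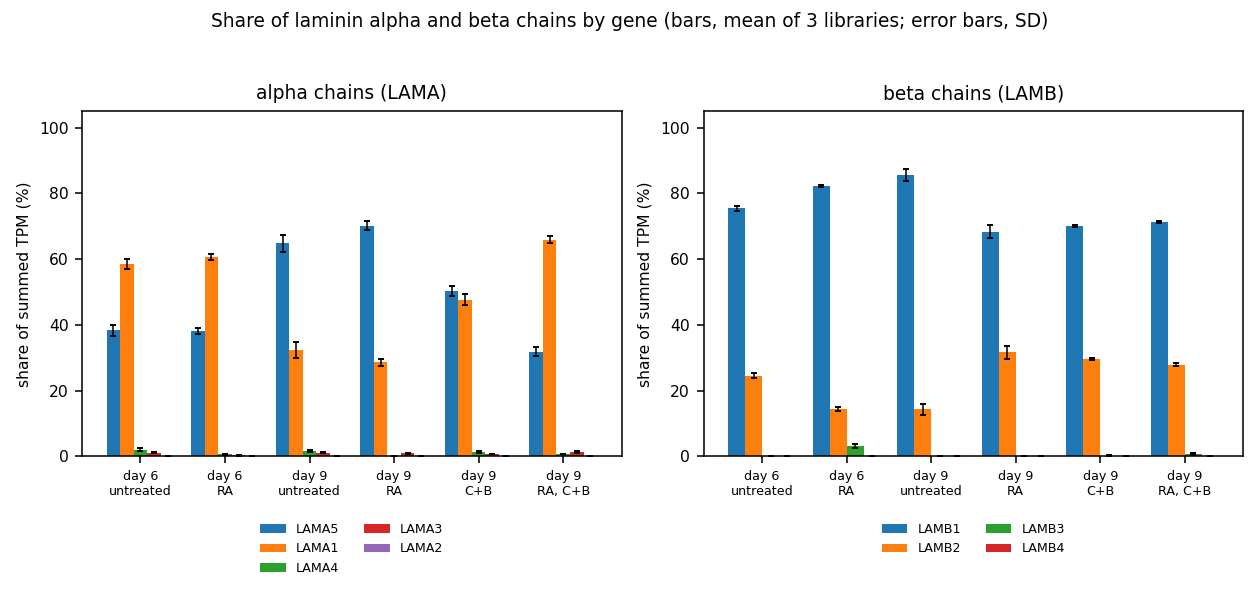
Share (%) of summed TPM held by each gene among laminin alpha chains (left) and beta chains (right), by group (bars, mean of 3 libraries; error bars, SD). LAMA1 led the alpha chains in both day 6 groups and with RA followed by C+B (65.9%), and LAMA5 led at day 9 in untreated cells (64.8%) and with RA alone (70.2%).

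Integrin chains were less concentrated. ITGB5 and ITGB1 led the beta chains: ITGB5 held 59.6 ± 3.14% of beta chain TPM in untreated day 6 and 60.8 ± 2.07% at day 6 with RA. At day 9 ITGB1 held 37.8 to 49.8% and ITGB5 25.9 to 40.1% by group mean. ITGB6 held 10.8 ± 1.47% with RA alone at day 9 and at most 0.782% by group mean elsewhere. Of alpha chain TPM, ITGAV held 26.6 ± 3.01% in untreated day 9 and 27.4 ± 2.77% with RA alone, the highest share in those groups. ITGA9 led with C+B alone (23.8 ± 1.91%) and ITGA6 with RA followed by C+B (21.9 ± 0.589%). In untreated day 6 ITGA5 led (26.8 ± 2.25%), and at day 6 with RA ITGA6 (25.2 ± 2.98%) and ITGA3 (24.8 ± 0.809%) did not differ beyond their spread.

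The response to RA was compared between days by an interaction, in which each day holds 1 treated and 1 untreated group. Read kind would cancel there only if it acted equally on both days, which was not tested. Libraries 1 and 3 of untreated day 6 are also mixed (8.92% and 17.6%). Of the 36 genes, 18 had a higher response at day 9 and 8 a lower one (72.2%), where 50.9% of all genes were called, 24.9% higher and 26% lower. ITGA2 responded in opposite directions. It read 86.6, 71 and 90.3 CPM in untreated day 6 and 10.5, 13.2 and 13.4 CPM with RA, but 47.9, 44.4 and 49.8 CPM in untreated day 9 and 182, 151 and 85.1 CPM with RA (interaction log2 4.29 ± 0.31 SE, adjusted p = 2.4e-08). VTN gained more by day 9 (interaction log2 3.18 ± 0.30 SE), as untreated cells fell from 39.3, 29.4 and 33.3 CPM to 8.08, 4.09 and 6.74 CPM while cells given RA rose. ITGA5 (1.90), ITGAV (1.85), LAMA3 (2.12) and FN1 (2.15) also had log2 interactions above 0. ITGA3 (-1.93), NID2 (-1.81) and LAMB3 (-6.19) had interactions below 0, with ITGA3 higher with RA at day 6 (2.89-fold) and 1.32-fold lower at day 9. The day 9 difference in ITGA3 was lost on TPM (log2 -0.04, adjusted p = 0.72 with either pseudocount) and was 0.08 with read kind as a term, while its interaction kept its call on TPM (-1.77 and -1.73) and with that term (-1.88). ITGB6 (2.84) lost its call without library 3 of untreated day 6 (2.17, adjusted p = 0.069), without both mixed untreated day 6 libraries (2.29, 0.20) and with read kind as a term (1.80, 0.26). Without single libraries LAMA1 (0.31) had an adjusted p of 0.054 to 0.065 in 5 cases (library 1 of untreated day 6, 2 or 3 of untreated day 9, 2 of either RA group), 0.092 with upper quartile factors, 0.12 without both mixed libraries and 0.084 with read kind as a term. LAMA4 (-0.71) had 0.055 without library 3 of day 6 with RA and 0.058 without library 3 of day 9 with RA, 0.11 without both mixed libraries and 0.07 to 0.16 on TPM.

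The next 4 comparisons set treated against untreated libraries and cannot be told apart from read kind. With read kind as a term, which nearly coincides with treatment, edgeR's test called 0 of the 36 genes for RA at day 6, RA at day 9 and C+B without RA. At an unadjusted p below 0.05 it found 8, 4 and 5 of them, and no other tool was run with this term. At day 6, 12 genes were higher and 14 lower with RA (72.2%), where 48.7% of all genes were called, 25.3% higher and 23.4% lower, and 25 had no overlap (57.2% of all genes). On TPM the split was 16 higher and 12 lower, with ITGB1 (log2 -0.18) changing sign to 0.02. ITGA11 stood at 0.536, 0.796 and 0.644 CPM in untreated cells and at 48.1, 45.3 and 53.8 CPM with RA, a 73.8-fold difference (log2 6.21 ± 0.31 SE, adjusted p = 7.5e-12). LAMB3 was 25-fold higher (0.268 to 0.322 CPM against 6.09 to 9.71 CPM), VTN 3.16-fold, ITGA3 2.89-fold and NID1 2.18-fold higher. ITGA2 was 6.7-fold lower, LAMA3 3.08-fold, and LAMA4 and ITGA9 2.51-fold each. Marker lists moved in this comparison as well. Of 8 smooth muscle genes 7 were lower and 0 higher, and of 12 endothelium genes 5 were lower and 0 higher. Of 10 foregut endoderm genes 6 were higher and 3 lower. The part of these lists was not tested.

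At day 9, 18 genes were higher and 9 lower with RA (75%), where 65.1% of all genes were called, 32.5% in each direction, and 28 had no overlap (65.6% of all genes). The split on TPM was 20 higher and 7 lower. Marker lists moved here too: cardiac genes summed to 65.7 to 77.5 CPM in untreated cells and 1830 to 2470 CPM with RA (11 of 12 higher), and smooth muscle genes to 315 to 433 CPM and 3340 to 4410 CPM (8 of 8 higher). Mesenchyme genes summed to 806 to 1280 CPM and 2390 to 3630 CPM, with 6 of 12 tested higher and 1 lower, and the part of these lists was not tested. ITGA11 was 33.1-fold (4.9, 3.74 and 5.01 CPM in untreated cells), VTN 28.6-fold, ITGB6 18.2-fold and FN1 5.72-fold higher. Untreated FN1 at day 9 was 6230, 5640 and 4530 CPM, below all 3 libraries with RA. LAMA4 was 4.11-fold lower (18.9, 24.7 and 17.6 CPM against 4.65, 5.64 and 4.33 CPM), NID2 2.34-fold, ITGA2B 2.26-fold and ITGA9 1.93-fold lower. With C+B alone, 12 genes were higher and 8 lower than in untreated day 9 (55.6%), where 42.8% of all genes were called, 21% higher and 21.8% lower, and 19 had no overlap (49.3% of all genes). The split on TPM was 15 and 6. ITGAV was 3.15-fold lower (720, 822 and 629 CPM against 232, 244 and 214 CPM), ITGB8 2.98-fold and ITGA3 2.16-fold lower. ITGA9 was 2.07-fold, NID2 1.74-fold and LAMA1 1.73-fold higher. With C+B alone 6 of 8 smooth muscle genes were lower and 1 higher. Of 12 mesenchyme genes tested 5 were higher and 3 lower, and the part of these lists was not tested.

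The interaction of RA with C+B asks whether C+B acted differently after RA. It called 20 genes lower and 6 higher (72.2%), where 53.4% of all genes were called, 27.9% lower and 25.5% higher, and edgeR's test with read kind as a term called 2 lower (FN1 and LAMC1) and 0 higher, with 6 at an unadjusted p below 0.05. On TPM the split was 20 lower and 2 higher. ITGB6 (log2 -5.06 ± 0.32 SE), FN1 (-3.61 ± 0.19 SE) and ITGA11 (-3.09 ± 0.59 SE) had the lowest values of the 36 genes. In FN1 the means show the crossing: C+B went with 7820 ± 1080 CPM against 5460 ± 863 CPM without RA, and with 3660 ± 150 CPM against 31200 ± 5020 CPM after RA. Of the 6 genes called higher, LAMA4 (1.12), ITGA2B (0.72) and ITGB4 (0.60) had the largest values among those at 5 CPM or more in the highest group. Of the pair LAMA3 and LAMB3, 1 was also called higher, with a median of 1.59 over the pair. LAMB3 read at most 1.54 CPM by group mean at day 9. ITGA2B lost its call without any of 7 single libraries (library 2 or 3 of untreated day 9, 1 of C+B alone, 1 or 2 of RA alone, 1 or 3 of RA followed by C+B), at adjusted p = 0.065 to 0.082.

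Untreated cells changed between day 6 and day 9 as well, with 13 genes higher and 12 lower (69.4%), where 46.9% of all genes were called, 24% higher and 22.9% lower. Libraries did not overlap in 24 of the 36 and in 50.9% of all genes, and the split on TPM was 13 and 11. NID2 rose 3.79-fold (47.2, 69.7 and 46.4 CPM to 197, 250 and 167 CPM), ITGB4 2.32-fold, ITGA1 2.27-fold and ITGA9 2.25-fold. VTN fell 4.92-fold, ITGB5 2.26-fold, FN1 2.19-fold and ITGA5 2-fold. With libraries 1 and 3 of untreated day 6 left out, ITGA1 (log2 1.19 to 0.89) and ITGA9 (1.17 to 0.89) were no longer called. Between these days 9 of 10 foregut endoderm genes fell and 0 rose, and 7 of 12 endothelium genes fell and 0 rose. The part of these lists was not tested. Of the genes with little expression, LAMC3, ITGA4, ITGA10 and ITGB2 stayed at or below 3.97 CPM in every library, and ITGAE lay at 10.2 to 21.7 CPM.

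Several chains with smaller changes had values in the 6 groups as follows. LAMB2, a beta chain of vessels and the neuromuscular junction, read 164, 141 and 156 CPM in untreated day 6 and 86.5, 84.5 and 88.1 CPM with RA. At day 9 it read 173, 140 and 163 CPM in untreated cells, 251, 295 and 305 CPM with RA alone, 245, 243 and 217 CPM with C+B alone, and 137, 143 and 151 CPM with both in turn. RA thus went with less LAMB2 at day 6 and more at day 9, without overlap on either day. NID1, the other nidogen, read 208, 243 and 218 CPM in untreated day 6 and 481, 478 and 499 CPM with RA, and 252 to 408 CPM over the 12 day 9 libraries. ITGA8, known from kidney and lung mesenchyme, ran from 0.683 to 8.34 CPM within untreated day 9 alone and from 0 to 0.402 CPM in both C+B groups. ITGA4, whose dimers bind the CS1 region of fibronectin, ran from 0.552 to 2.99 CPM in all 18 libraries. It was called in 1 of 9 comparisons, higher with C+B alone than in untreated day 9 (1.98-fold), a call lost without library 1 of untreated day 9 (adjusted p = 0.11) or library 2 of C+B alone (adjusted p = 0.072). ITGB2, the beta chain of leukocytes, was 8.67-fold lower at day 9 than at day 6 after RA, at 2.1, 3.68 and 2.83 CPM against 0.802, 0.104 and 0.222 CPM. The leukocyte and megakaryocyte list summed to at most 36.7 CPM in any library, and PF4 was at 0 counts in all 6 groups.

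**Figure D5:**
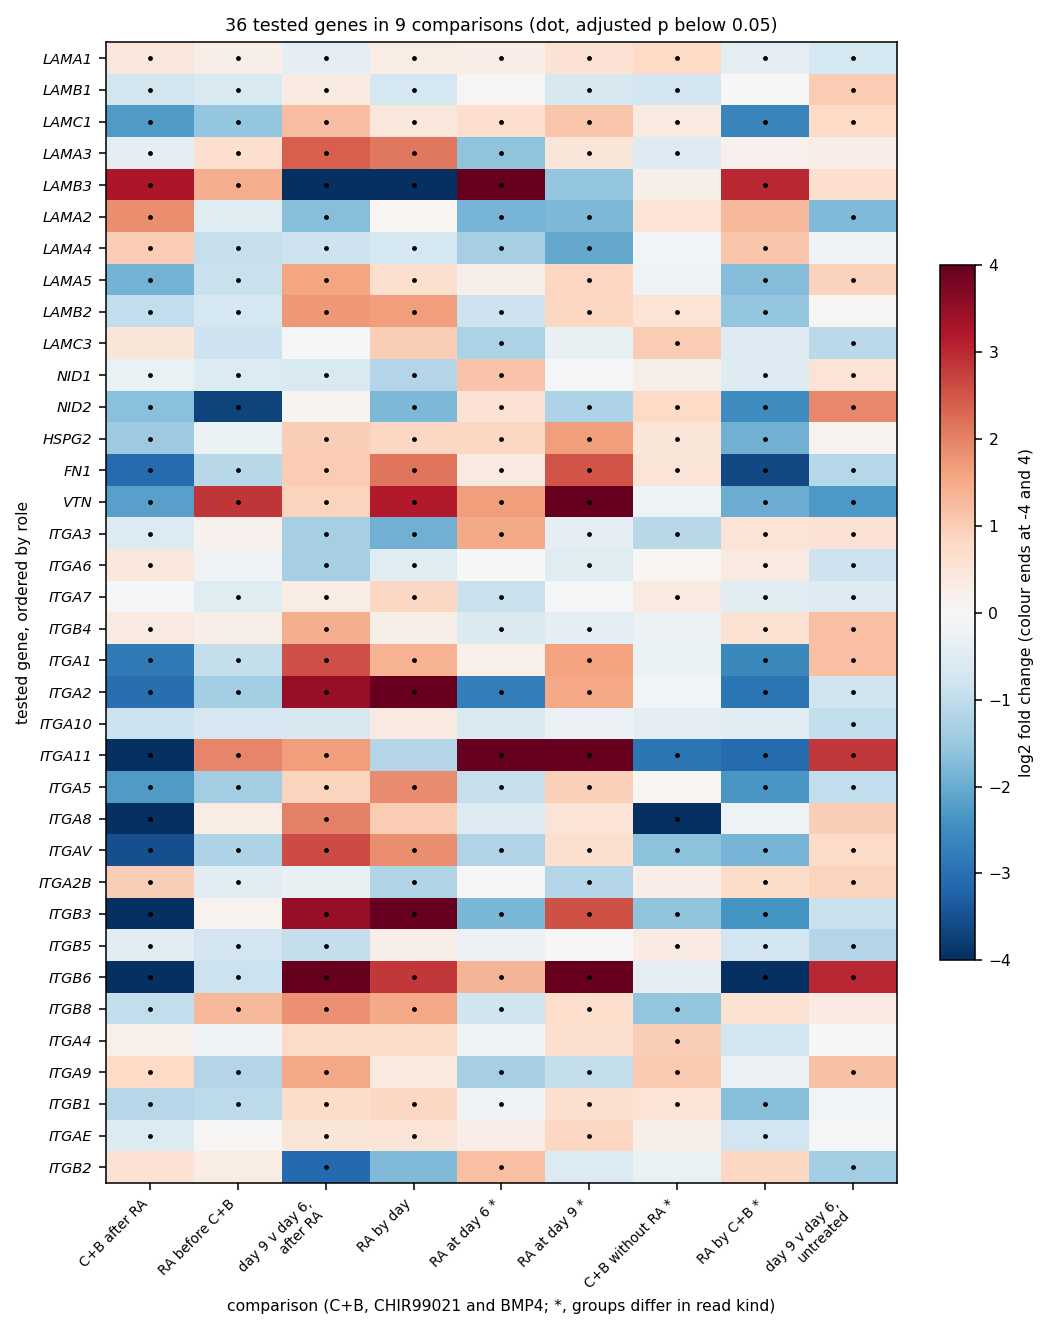
Log2 fold change (colour, ending at -4 and 4) of the 36 tested genes in 9 comparisons, with a dot where adjusted p was below 0.05; an asterisk marks comparisons in which the groups differ in read kind. In the column for C+B after RA 23 genes are lower and 8 higher, and in the column for day 9 against day 6 after RA 22 are higher and 9 lower.

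Other genes of matrix and adhesion were counted in lists from general knowledge, to be read beside the shares of all genes called: 28.5% higher and 30.3% lower from day 6 to day 9 after RA, 32.1% and 32.3% for C+B after RA, and 21.2% and 22.1% for RA before C+B. All 6 collagen IV chains, which form the other network of the basement membrane, rose from day 6 to day 9 after RA (median log2 0.93), and all 6 fell after C+B in cells given RA (median -1.82). COL4A6 stood at 1050 ± 139 CPM (SD, n = 3) with RA alone and at 215 ± 8.33 CPM with RA followed by C+B. Of 24 adaptors and kinases that link integrins to actin, 17 rose and 2 fell after RA from day 6 to day 9, and 1 rose and 20 fell after C+B following RA. VCL, the gene of vinculin, read 1120 ± 152 CPM and 157 ± 6.21 CPM in the last pair, a 7.15-fold fall. Of 11 other integrin ligands tested, 10 fell in that pair and 1 rose, led by TNC (634 ± 145 CPM to 14.9 ± 2.28 CPM) and COL1A1 (1610 ± 290 CPM to 100 ± 8.48 CPM).

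The 18 other basement membrane proteins were divided after C+B following RA, with 6 higher and 6 lower, close to the shares over all genes. NTN1, a laminin-related guidance protein, rose 49.7-fold (1.75 ± 0.394 CPM to 88.6 ± 6.98 CPM), while TINAGL1 fell 35.5-fold. FREM1, which joins epithelium to the tissue beneath, rose 22.2-fold. The 4 laminin receptors outside the integrin family split evenly, with RPSA (1.84-fold) and BCAM (1.58-fold) higher and CD151 (2-fold) and DAG1 (1.58-fold) lower. For RA before C+B, 5 of 6 collagen IV chains were lower and 0 higher, and the adaptors and kinases were divided, with 6 higher and 7 lower.

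Some values carry a limit from overlapping genes, and the strand setting of the read counting is not given in the sources used here. NID2 overlaps RTRAF, whose counts over 18 libraries came to 74.7% of those of NID2, and ITGA1 overlaps PELO (80.8%). These overlaps are of whole gene spans, from start to end. Exons were not compared, so whether reads are shared is not known. NID2 and RTRAF lie on opposite strands, but ITGA1 and PELO lie on the same strand, so a strand setting alone would not separate them. ITGB4 overlaps GALK1 (37%), ITGA9 an antisense gene (9.14%) and ITGAE overlaps HASPIN (2831 counts, against 2705 of ITGAE). LAMA2, with 218 counts over 18 libraries, overlaps the pseudogene BMPR1AP1, with 2724. FN1 overlaps ATIC, which had 0.818% of its counts.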

How the data were processed

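RNA was sequenced from 18 libraries in 6 groups of 3 with a stranded mRNA kit, per the labels' protocols. STAR 2.7.9 and GRCh38 are named per the submitters' processing notes; which counter and annotation were used, and with which strand setting, is not given in the sources used here. The deposited table holds raw counts per gene, and the authors also deposited TPM, which were used for chain shares and 1 alternative. Totals ran from 5.79 to 25.37 M counts, which limits the genes at a few counts most; 36 rows without a symbol (0.001% of counts) were left out.

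Genes were kept by edgeR's filter at a minimum count of 10, scaled by TMM and tested with edgeR 4.0.16 (R 4.3.3) quasi-likelihood tests over all 6 groups, with Benjamini-Hochberg adjustment over 15531 genes and calls at 0.05. Replicates differed by more than sampling noise (chi-square per gene 2.16 to 10.63). In simulated data for C+B after RA on 15531 genes, 67, 67 and 66 genes were changed 1.5-fold, 2-fold and 4-fold. All other genes were left equal between groups. Of the changed genes 56.7%, 79.1% and 95.5% were recovered. For the RA by day interaction, with as many genes run and changed, these were 13.4%, 70.1% and 87.9%. Far more genes were called in the real data, so these shares do not give the recovery of the real tests. Alternatives were other scalings, no filter, DESeq2 1.42.0, limma 3.58.1 on log2(TPM + 0.1 or 1), the compared groups alone, a replicate block, a read-kind term, each library left out and, added after seeing the data, both mixed untreated day 6 libraries left out. The labels state no pairing of libraries by replicate number, and the main test used none.

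Genes named with values were those chosen for their roles plus, per comparison, up to 4 rises and 4 falls (3 for interactions) by fold among called genes at 5 CPM or more whose libraries did not overlap. Other genes are named with lower levels to account for all. Of the genes the symbol rule selects, 1 is not reported here and enters no count of these genes, though it stayed in the fit. The genes and lists were chosen with earlier results of these data known. The 6 lists of related genes and 9 marker lists came from general knowledge.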

Additional observations from a re-analysis of the deposited data

Results flagged for a closer look

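In 12 selected pairs of gene and interaction, the effect differed between conditions by a test of the interaction itself (edgeR, adjusted p below 0.05). They are the 3 largest in each direction per interaction among called genes at 5 CPM or more. Each interaction called 72.2% of the 36 genes, beside 53.4% of all genes for RA by C+B and 50.9% for RA by day. Between C+B given after RA and without RA, the log2 effect differed by -5.06 for ITGB6, -3.61 for FN1 and -3.09 for ITGA11, and by 1.12 for LAMA4, 0.72 for ITGA2B and 0.60 for ITGB4. For FN1, C+B libraries lay above untreated ones without RA and below the RA-alone ones after it. These 6 values cannot be told apart from read kind, because among the day 9 groups only the untreated libraries lie on the untreated side of that split.

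Between RA at day 9 and at day 6, the log2 effect differed by 4.29 for ITGA2, 3.18 for VTN and 2.84 for ITGB6, and by -6.19 for LAMB3, -1.93 for ITGA3 and -1.81 for NID2. ITGA2 was lower with RA at day 6 (10.5 to 13.4 CPM against 71 to 90.3 CPM) and higher at day 9 (85.1 to 182 CPM against 44.4 to 49.8 CPM). ITGB6 had 2.29 without the mixed untreated day 6 libraries and 1.80 with a read-kind term.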

How the results depend on the processing

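For C+B after RA, RA before C+B, day 9 against day 6 after RA and RA by day, the counts of called members stayed within 1.5 times under every alternative run. Leaving out 1 library gave 8 higher and 21 to 23 lower for C+B after RA, 5 to 6 and 16 to 18 for RA before C+B, 20 to 22 and 8 to 10 for day 9 against day 6 after RA, and 16 to 18 and 7 to 10 for RA by day. The same ranges were 9 to 12 and 11 to 13 for RA at day 6, 17 to 18 and 8 to 9 for RA at day 9, 9 to 12 and 6 to 8 for C+B without RA, 5 to 7 and 18 to 20 for RA by C+B, and 13 to 14 and 9 to 12 for untreated days.

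With the read-kind term, members called were 0 higher and 0 lower for RA at day 6 (90 genes in all), RA at day 9 (59) and C+B without RA (17), and 0 higher and 2 lower for RA by C+B (60). Under it, log2 signs turned for RA at day 6 in ITGB6 (-6.04), ITGA9 (1.11) and ITGB1 (0.78), the last also on TPM (0.02), and for RA at day 9 in LAMA3 (-1.34), NID2 (1.94), ITGA3 (0.08), ITGA6 (0.02), ITGA2 (-0.44), ITGB6 (-4.24) and ITGA9 (1.76). They also turned for C+B without RA in LAMB2 (-0.21) and HSPG2 (-0.31), and for RA by C+B in ITGA6 (-0.16) and ITGB6 (3.39). The term nearly coincides with treatment by construction. On TPM, RA at day 9 had 5 members lower (pseudocount 1) and RA by C+B 2 higher (0.1 and 1), and the cause was not tested. TPM shifted the median of all genes by 0.2 for RA at day 6, 0.33 for RA at day 9, 0.24 for C+B without RA and -0.18 for untreated days. Without both mixed libraries, untreated days had 7 members lower and 4495 genes called, with fewer samples.

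With a replicate block, C+B after RA had 8 members higher and 23 lower and 10032 genes called, and the block changed no call of the 210 named results. Same-numbered libraries had deviations correlating at -0.088 to 0.28, and 11 of 18 libraries correlated best with their own number. Genes at a few counts (LAMB3, ITGA8, LAMA2) are limited by depth.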
